A study of Mus musculus with 6 samples.

Results

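Long non-coding genes that host small nucleolar RNAs (snoRNAs) in their introns were examined in macrophages grown from mouse bone marrow. These primary cells can fuse into osteoclasts, the cells that resorb bone. RNA was sequenced before and 1 day after RANKL, the cytokine that starts osteoclast formation. The 7 genes named were Gas5, Snhg1, Snhg3, Snhg5, Snhg6, Snhg8 and Snhg12, and their rows were taken by gene symbol. Of these, 6 were found by symbol among the 45706 genes of the gene table, and all 6 passed the filter on low counts. Snhg1 had no row by symbol, identifier or transcript in the tables used and is not analysed here.

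The 6 libraries form 3 groups of 2: cells at day 0 for which the labels name no treatment, cells at day 1 with RANKL, and cells at day 1 with RANKL and sodium acetate. Acetate is a short-chain fatty acid that gut bacteria make from fibre. The labels give no strain, age, sex, dose or culture medium, and no group at day 1 lacks RANKL, so RANKL and the day in culture cannot be told apart. No group received acetate without RANKL or another sodium salt with RANKL. The labels do not say that libraries of a group came from separate cultures or mice, so the p-values measure only the spread between these libraries.

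A snoRNA host gene is transcribed and spliced like a messenger RNA, and its snoRNAs are trimmed out of the excised introns. C/D box snoRNAs guide 2′-O-methylation of ribosomal RNA and H/ACA box snoRNAs guide its pseudouridylation, while some of both kinds act in cutting the ribosomal precursor. The spliced RNA of several hosts, Gas5 the best studied, carries only short reading frames, starts with an oligopyrimidine tract like that of ribosomal protein messages, and is degraded by nonsense-mediated decay when translated. Gas5 was named for its accumulation in growth-arrested cells.

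The snoRNAs show what each host carries. GENCODE M21, an annotation on the GRCm38 build, places 21 snoRNA genes inside the 6 hosts. The sequences are 5′ to 3′, written as DNA, and 1 was taken per host, plus a second for Snhg5. Gas5 lies at chr1:161034422-161038539 on the plus strand and holds 10 of them at 9 loci, among them Snord47 at chr1:161038082-161038158. Snhg6 (chr1:9941959-9944118, minus strand) holds Snord87 at chr1:9942463-9942549, and Snhg12 (chr4:132308623-132311024, plus strand) holds 5 at 4 loci, 1 of them the C/D box Snord99 at chr4:132310691-132310764 and the other 4 of the H/ACA kind (2 overlapping Snora16a genes, Snora44 and Snora61). Snhg5 (chr9:88521050-88522929, minus strand) holds Snord50a at chr9:88521529-88521600 and Snord50b at chr9:88521797-88521868. Snord47, Snord50a, Snord50b, Snord87 and Snord99 are C/D box snoRNAs whose human counterparts guide methylation of the large-subunit ribosomal RNA. Capitals mark the C box TGATGA near the 5′ end and the D box CTGA near the 3′ end.
Snord47: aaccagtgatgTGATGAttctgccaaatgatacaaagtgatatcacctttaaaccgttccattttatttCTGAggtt
Snord50a: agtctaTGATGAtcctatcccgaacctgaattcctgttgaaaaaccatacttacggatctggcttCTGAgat
Snord50b: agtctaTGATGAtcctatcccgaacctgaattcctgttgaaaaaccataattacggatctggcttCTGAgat
Snord87: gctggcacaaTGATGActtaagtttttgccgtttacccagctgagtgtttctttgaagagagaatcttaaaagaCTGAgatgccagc
Snord99: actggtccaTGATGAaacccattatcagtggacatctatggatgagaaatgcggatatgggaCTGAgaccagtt

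The Snhg5 pair has the same length, 72 bases, and differs at 1 position, C50A, counted from the 5′ end with the Snord50a base first. Snhg3 and Snhg8 carry only H/ACA box snoRNAs, as Snhg12 does at most of its loci. In those shown, the ACA 3 bases from the 3′ end is in capitals. Snhg3 (chr4:132348014-132353686, minus strand) holds Snora73a at chr4:132352775-132352979 and Snora73b, a kind that acts in cutting the ribosomal precursor. Snhg8 (chr3:123507552-123508404, minus strand) holds Snora24 at chr3:123507937-123508066, whose human counterpart guides pseudouridylation of the small-subunit ribosomal RNA.
Snora73a: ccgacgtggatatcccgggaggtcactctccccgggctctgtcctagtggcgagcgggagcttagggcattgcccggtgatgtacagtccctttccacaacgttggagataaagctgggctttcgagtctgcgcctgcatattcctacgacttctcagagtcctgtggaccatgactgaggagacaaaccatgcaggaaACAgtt
Snora24: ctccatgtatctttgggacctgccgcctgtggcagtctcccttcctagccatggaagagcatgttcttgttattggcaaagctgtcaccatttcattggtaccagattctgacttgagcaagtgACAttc

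Libraries held 9997527 to 11254961 gene-level counts, which put a count of 0 at no more than 0.314 CPM (the usual count share of the library total, after TMM scaling; the limit is 3 counts and covers counting error only). All 8 macrophage markers were detected, and their summed CPM was 20058 to 20458 at day 0, 5764 to 5830 with RANKL and 12170 to 12350 with acetate. Of the osteoclast markers 8 of 9 were detected, with Calcr at 0 throughout, and their sum was 71.1 to 75.3 CPM at day 0, 3064 to 3070 with RANKL and 803 to 850.1 with acetate. Megakaryocyte markers (5 of 5 detected) summed to 342 to 361 CPM at day 0, 76.2 to 82.9 with RANKL and 85.7 to 90.3 with acetate, and neutrophil markers (7 of 7) to 215 to 222, 164 to 166 and 159 to 164. Endothelial markers summed to at most 24.9 CPM, with Emcn at 0, stromal markers to at most 13.7, and B, T or NK, mast and dendritic markers to under 5 CPM in every library. Cd3e, Cd3d, Cd3g, Mcpt4 and Fcer1a were at 0. Whether these marker counts came from other cells or from the macrophages themselves was not tested. The part of any other cells in the host gene results was not tested either. In bulk RNA fewer cells of a type and less RNA per cell cannot be told apart.

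All 6 host genes rose with RANKL, by 2.32-fold to 3.62-fold. A gene was called at an adjusted p under 0.05 over all 12224 genes tested (edgeR's quasi-likelihood test, Benjamini-Hochberg adjustment), and 32.8% of them were called higher, 33.5% lower and 66.3% in either direction, so most genes moved. The median log2 fold change of the 6 hosts was 1.53, and that of all genes tested was 0.01. With acetate added, 3 of the 6 were called lower than with RANKL alone and 0 higher, where 13.7% of all genes tested were called lower and 16.7% higher. DESeq2 called 1 of the 6, and Snhg3, not called, was higher in both acetate libraries. The sum of the 6 hosts was 130.4 to 134 CPM at day 0, 369.6 to 392 with RANKL and 323 to 332 with acetate, and Gas5 made up 53.9% to 57.7% of it in every library.

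**Figure D1:**
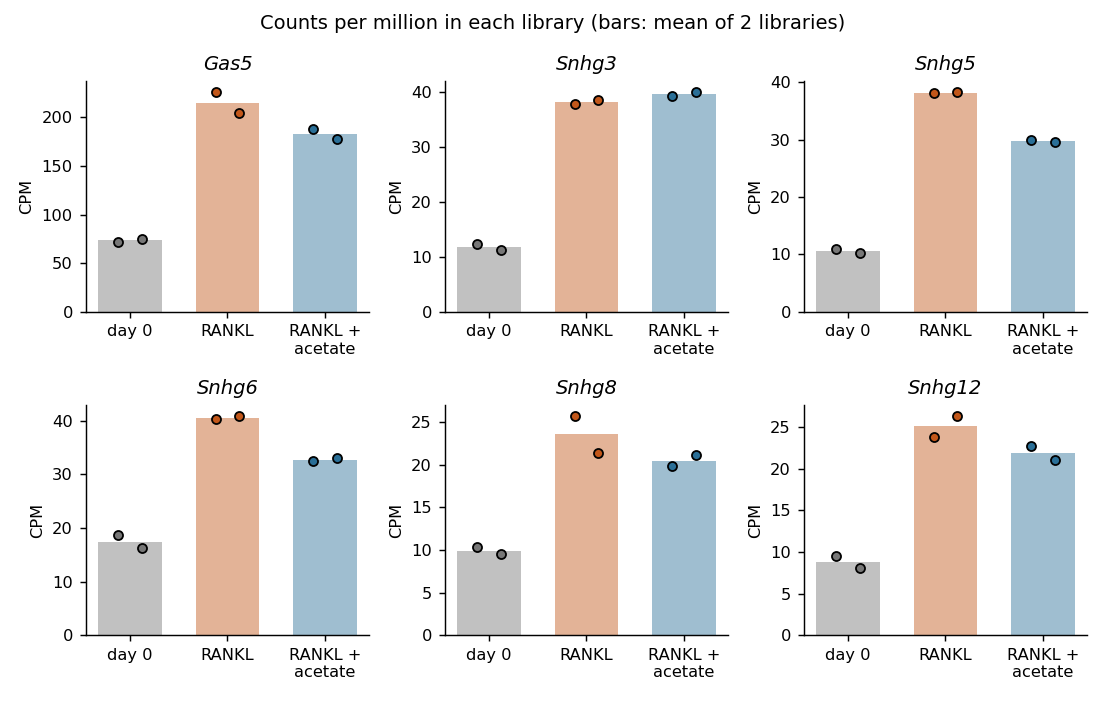
CPM of 6 snoRNA host genes (vertical axis, linear from 0, a scale for each gene) in day 0, RANKL and RANKL with acetate libraries. Points are single libraries and bars are the means of 2. Every day 1 library lies above every day 0 library of the same gene, and Snhg3 has its highest points with acetate.

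Gas5, the most abundant host, stood at 72.0 and 75.1 CPM at day 0, 226 and 204 after RANKL, and 188 and 178 after both agents (replicates 1 and 2 in each group). The 3 groups did not overlap, and acetate lay between day 0 and RANKL alone. The mean rose 2.93-fold with RANKL, from 73.6 ± 2.24 to 215 ± 15.6 CPM (SD, n = 2), a log2 fold change of 1.55 ± 0.06 (SE, adjusted p = 1.970e-22). With acetate the mean was 183 ± 6.87 CPM, lower than with RANKL by a log2 fold change of -0.24 ± 0.05 (adjusted p = 0.000407).

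Snhg5, the host of the Snord50 pair, had the largest fold change of the 6 with RANKL. It stood at 10.9 and 10.2 CPM at day 0, 38.1 and 38.3 with RANKL, and 29.9 and 29.6 with acetate. Libraries of a group lay within 1 CPM of each other and the groups were well apart. The rise with RANKL was 3.62-fold (log2 fold change 1.86 ± 0.12, adjusted p = 1.141e-15). The decrease with acetate was the largest of the 6, -0.36 ± 0.10 on the log2 scale (adjusted p = 0.00488), but DESeq2 did not call it (adjusted p = 0.0604).

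Snhg6, the host of Snord87, stood at 18.6 and 16.2 CPM at day 0, 40.2 and 40.9 with RANKL, and 32.5 and 33.0 with acetate. Again acetate lay between the other groups without overlap. Its rise with RANKL was 2.32-fold (log2 fold change 1.22 ± 0.11, adjusted p = 4.491e-12). Its log2 fold change with acetate was -0.31 ± 0.10 (adjusted p = 0.0132). That call was lost when any 1 of the 4 libraries compared was left out (adjusted p 0.0549 without RANKL replicate 1, 0.0738 without RANKL replicate 2, 0.0790 without acetate replicate 1 and 0.0545 without acetate replicate 2) and under DESeq2 (adjusted p = 0.103).

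Snhg3, the host of the Snora73 pair, was the exception to the order of the groups. It stood at 12.4 and 11.3 CPM at day 0, 37.7 and 38.6 with RANKL, and 39.3 and 39.9 with acetate, so that both acetate libraries were above both RANKL libraries. The rise with RANKL was 3.22-fold (log2 fold change 1.69 ± 0.11, adjusted p = 5.845e-15). The difference with acetate was 0.05 on the log2 scale, with a 95% interval of -0.14 to 0.24 (adjusted p = 0.716), and its sign turned in some alternatives, which ran from -0.01 to 0.07. Whether Snhg3 differed from the other hosts in this was not tested.

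Snhg8 and Snhg12, the least abundant by count, were the least certain under acetate. Snhg8, the host of Snora24, stood at 10.3 and 9.52 CPM at day 0, 25.7 and 21.3 with RANKL, and 19.8 and 21.1 with acetate. Its 2 RANKL libraries differed by more than RANKL replicate 2 differed from the acetate libraries. The rise with RANKL was 2.37-fold (log2 fold change 1.25 ± 0.14, adjusted p = 1.993e-09), and the difference with acetate was -0.21 on the log2 scale (95% interval -0.46 to 0.05, adjusted p = 0.235).

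Snhg12 stood at 9.50 and 8.06 CPM at day 0, 23.8 and 26.4 with RANKL, and 22.8 and 21.1 with acetate. The acetate libraries were below the RANKL libraries, the nearest by about 1 CPM. The rise with RANKL was 2.85-fold (log2 fold change 1.51 ± 0.14, adjusted p = 2.059e-11). The difference with acetate was -0.19 on the log2 scale (95% interval -0.44 to 0.05, adjusted p = 0.246), so a decrease of the size seen in Gas5 could not be told from no change for either gene at this depth.

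Counted together, 3 of the 6 hosts fell with acetate against RANKL alone, where 30.4% of all genes tested were called in either direction. The median difference was -0.22 on the log2 scale for the hosts and -0.00 for all genes. The 1 that DESeq2 called was Gas5. Against day 0, all 6 were higher with RANKL and acetate, where 30.3% of all genes were called higher and 60.7% in either direction, with a median log2 fold change of 1.32 for the hosts and 0.00 for all genes. This comparison shares its libraries with the other comparisons and is no separate evidence. Its log2 fold changes were 1.74 ± 0.12 for Snhg3, 1.50 ± 0.12 for Snhg5, 1.32 ± 0.15 for Snhg12, 1.31 ± 0.06 for Gas5, 1.04 ± 0.15 for Snhg8 and 0.91 ± 0.11 for Snhg6 (SE).

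**Figure D2:**
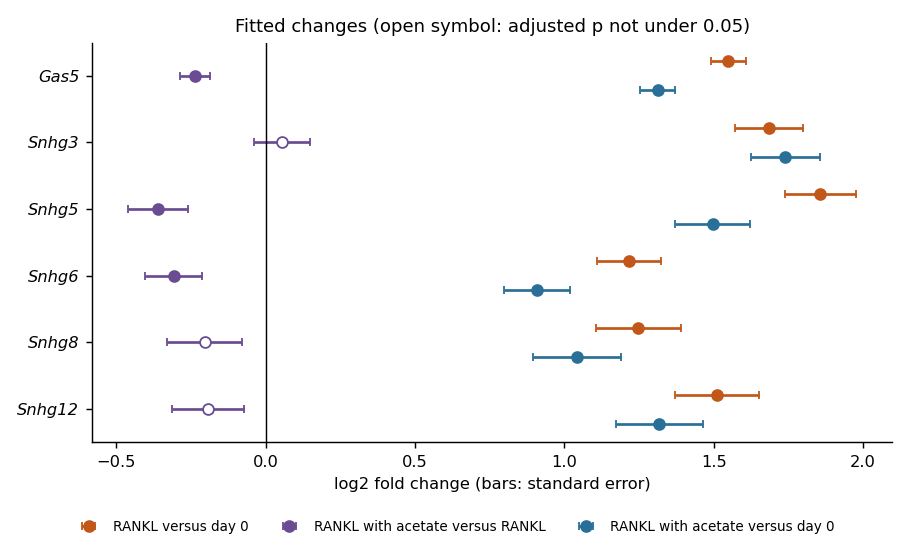
Log2 fold changes (horizontal axis) with standard errors for 6 host genes in 3 comparisons; open symbols did not reach an adjusted p under 0.05. RANKL changes lie between 1.22 and 1.86 and acetate changes against RANKL between -0.36 and 0.05, with Snhg3 the only host above 0.

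Levels can be compared between genes only per length, so the authors' TPM were used for the order. At day 0 the mean TPM was 223 ± 1.73 for Gas5, 108 ± 12.7 for Snhg6, 84.4 ± 6.02 for Snhg3, 61.2 ± 2.79 for Snhg8, 34.2 ± 11.1 for Snhg12 and 22.2 ± 0.912 for Snhg5 (SD, n = 2). With RANKL it was 576.5 for Gas5, 268 for Snhg3, 247 for Snhg6, 129.9 for Snhg8, 87.2 for Snhg12 and 82.9 for Snhg5, and with acetate 491, 266, 194, 114, 81.0 and 64.3 in the same order. Snhg3 and Snhg6 exchanged places between day 0 and day 1. The libraries of neighbours in the order did not overlap, except for Snhg12 and Snhg5 with RANKL, where Snhg12 ranged from 81.1 to 93.3 TPM and Snhg5 from 82.4 to 83.3.

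A transcript that keeps a snoRNA's intron holds that snoRNA unexcised, so the transcript table was read for transcripts annotated as retaining an intron and, separately, for those that hold a whole snoRNA. These differ: Gas5-213 and Gas5-220 retain an intron but hold no whole snoRNA, while Snhg12-203 holds 1 and is not annotated as retaining an intron. Such estimates are less certain than gene counts, because RSEM divides reads that fit several transcripts. The 6 genes had 53 transcript rows, of which 38 passed the filter. RANKL against day 0 gave 20 called, all higher, where 25.4% of the 26298 transcripts tested were called in either direction. That count fell when any 1 of the 4 libraries compared was left out. The share of all transcripts called was not counted in those fits, so a general loss of calls cannot be told from one particular to the hosts. Acetate against RANKL gave 0 called under edgeR, where 4.14% of all transcripts were called. Of the 38 estimates, 29 were below 0 and 2 had an unadjusted p under 0.05 (edgeR). The shares of all transcripts below 0 or at that unadjusted p were not counted. The 38 divide the reads of 6 genes, with 16 from Gas5, so they are not separate evidence. RANKL with acetate against day 0 gave 16, all higher, where 20.5% were called, and fewer when any 1 of the 4 libraries compared was left out. There too the share of all transcripts was not counted.

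Gas5-218, a form of 2556 bases that keeps introns with 6 whole snoRNAs, was estimated at 111 and 95.8 counts at day 0, 439 and 410.4 with RANKL, and 286 and 315 with acetate. Its log2 fold change with RANKL was 1.81 ± 0.12 (edgeR, adjusted p = 0.000346). Gas5-222, with 3 whole snoRNAs in 1614 bases, rose by 1.73 ± 0.16 (adjusted p = 0.00119). These snoRNA numbers count annotated genes, of which Gas5 has 10 at 9 loci, so overlapping annotations are each counted. Gas5-224, a spliced form of 502 bases that holds none, was estimated at 169 and 163 counts at day 0, 371 and 329 with RANKL, and 245 and 289 with acetate, and rose by 0.85 ± 0.13 (adjusted p = 0.00781). Another spliced form, Gas5-210, rose by 1.63 ± 0.16 (adjusted p = 0.00149). Differences between transcripts were tested only through the retained-intron share.

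The retained-intron share of Gas5, over 20 of its 25 transcripts, was 66.1% and 66.3% at day 0, 75.1% and 73.1% with RANKL, and 74.0% and 72.6% with acetate. Both day 1 groups lay above day 0 and overlapped each other. The ratio of retained-intron to other counts was higher with RANKL by 0.55 on the log2 scale, which was not called (adjusted p = 0.0546 over 2570 genes, edgeR's diffSpliceDGE, alternatives 0.0541 to 0.220). Snhg8 has 1 retained-intron transcript, which holds Snora24, and its share was 16.7% and 14.5% at day 0, 28.5% and 31.2% with RANKL, and 23.3% and 26.6% with acetate. The difference with RANKL was 1.21 on the log2 scale and was not called (adjusted p = 0.224). In Snhg5 the mean share was 51.1% ± 0.969 at day 0, 45.4% ± 6.59 with RANKL and 47.1% ± 3.64 with acetate (SD, n = 2), a log2 difference of -0.34 with RANKL that was not called (adjusted p = 0.715). The share on transcripts that hold a whole snoRNA, added after values were seen and not tested, was 55.5% ± 1.08 at day 0, 61.8% ± 0.338 with RANKL and 63.1% ± 0.637 with acetate in Gas5 (SD, n = 2). In Snhg8 it is the same transcript and share as above. In Snhg5 it was 17.2% ± 2.12, 18.2% ± 2.55 and 15.1% ± 6.48, far below the retained-intron share. Both Snhg5 shares are uncertain, because only 5 of its 8 transcript rows match GENCODE in length. Snhg5-206, counted as retaining an intron without a whole snoRNA, has 910 bases in the deposited data and 1221 in GENCODE. Snhg5 rows absent from GENCODE were counted as other transcripts. In Snhg12, which has no retained-intron transcript, the share on transcripts that hold a whole snoRNA was 55.2% ± 5.92, 53.1% ± 1.82 and 58.2% ± 9.76, but only 3 of its 7 transcript rows match GENCODE in length. For the retained-intron share, 0 of the 3 hosts with both kinds of transcript were called with RANKL, where 0.856% of genes were, and 2 of 3 had an unadjusted p under 0.05. Acetate against RANKL gave 0 of 3 called (0.0389% of genes called), and 0 of 3 had an unadjusted p under 0.05. Acetate against day 0 also gave 0 of 3 called (0.739% of genes called), and 1 had an unadjusted p under 0.05. These percentages are of genes called at the adjusted p. The share of genes at an unadjusted p under 0.05 was not counted, so the unadjusted counts have no background here.

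**Figure D3:**
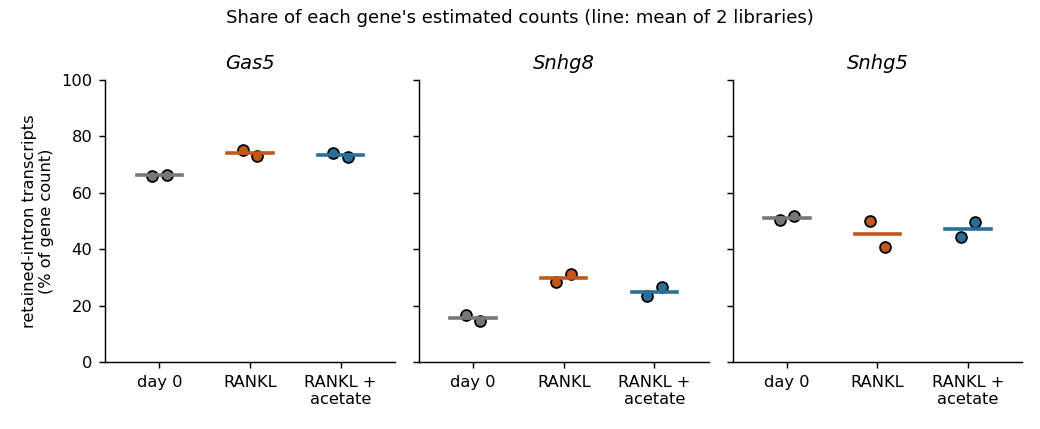
Percent of a gene's estimated transcript counts on transcripts annotated as retaining an intron (vertical axis, 0 to 100), for Gas5, Snhg8 and Snhg5 in the 3 groups. Points are libraries and lines are means of 2; Gas5 and Snhg8 lie lowest at day 0, while Snhg5 lies highest there.

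With retained-intron transcripts taken out of every gene's count and all genes refitted, the 6 hosts still rose with RANKL, Gas5 by 1.16 and Snhg8 by 0.98 on the log2 scale. Under acetate Gas5 was then no longer called (log2 fold change -0.19, adjusted p = 0.0717). All 21 snoRNA genes inside the hosts have a row of their own, but only Snora73a and Snora73b had any count, 9 in all, so the libraries give no measure of the snoRNAs. The labels name an mRNA library kit, and mature snoRNAs lack a poly(A) tail. Why the snoRNA rows held so few counts was not tested.

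A further 10 listed non-coding hosts passed the filter, and 9 of them rose with RANKL (median log2 fold change 1.305), with 0 lower. Of all genes tested, 32.8% were called higher and 33.5% lower. Snhg4 went from 9.66 ± 0.196 to 39.6 ± 1.03 CPM (log2 fold change 2.04 ± 0.12, adjusted p = 1.075e-16), and Zfas1 from 16.1 ± 1.89 to 60.2 ± 1.61 CPM (1.90 ± 0.10, adjusted p = 2.446e-18; SD, n = 2). The other rises were 1.94 ± 0.30 for Dancr, 1.82 ± 0.25 for Epb41l4aos, 1.58 ± 0.09 for 1110038B12Rik, 1.03 ± 0.16 for Snhg15, 0.81 ± 0.19 for 2410006H16Rik, 0.78 ± 0.09 for Snhg17 and 0.52 ± 0.14 for Snhg20. Dancr is uncertain, because its identifier in the table is not in GENCODE M21 while that of GENCODE's Dancr is labelled Snora26 there, and the counts are partly fractional. Snhg14, the long host of the imprinted snoRNA clusters near Snrpn, stood at 18.6 ± 1.52 CPM at day 0 and 15.96 ± 0.262 with RANKL and was not called (log2 fold change -0.22 ± 0.15, adjusted p = 0.195).

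Under acetate against RANKL, 4 of these 10 fell and none rose (median -0.18), where 13.7% of all genes were called lower and 16.7% higher. The log2 fold changes were -0.29 ± 0.10 for Snhg4, -0.38 ± 0.14 for Snhg20, -0.60 ± 0.21 for Epb41l4aos and -0.75 ± 0.25 for Dancr. Zfas1 at -0.09, 1110038B12Rik at -0.12, Snhg14 at -0.13, Snhg15 at -0.18, Snhg17 at -0.18 and 2410006H16Rik at -0.09 were not called. Against day 0 with RANKL and acetate, 8 were higher and 1, Snhg14, was lower (median 1.02). In that comparison 30.3% of all genes were called higher and 30.4% lower. Snhg7 and Snhg9 had 0 counts, Snhg18 had 1 and Snhg11 had 46 over all libraries and were not tested, and Snhg10 and Snhg16 are not analysed here.

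Protein-coding hosts had lower medians. Of 23 that are not ribosomal proteins, 21 rose and 1 fell with RANKL (median log2 fold change 0.66), and all 22 ribosomal protein hosts rose (median 0.54, from 0.34 to 0.82). Over all genes tested, 32.8% were called higher and 33.5% lower. Nucleolin (Ncl), a nucleolar protein of ribosome assembly, rose from 757 ± 15.98 to 2293 ± 17.3 CPM (SD, n = 2), a log2 fold change of 1.60 ± 0.03 (adjusted p = 6.406e-31). Among ribosomal protein hosts, Rpl13a rose by 0.82 ± 0.03, Rpl4 by 0.72 ± 0.03, Rpl23a by 0.71 ± 0.03 and Rpl3 by 0.70 ± 0.03. The exceptions, named after their values were seen, were Tpt1, which fell (-0.34 ± 0.03), and Nap1l4, which was not called (-0.05). With acetate against RANKL, 13 of the 23 fell and 1 rose (Hspa8, 0.11 ± 0.02), and 13 of the 22 fell and 0 rose (medians -0.12 and -0.09). Over all genes, 13.7% were called lower and 16.7% higher there. Against day 0 with acetate, 20 rose and 1 fell among the 23, and 22 of the 22 rose (medians 0.63 and 0.48). In that comparison 30.3% of all genes were called higher and 30.4% lower.

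The proteins that bind and mature snoRNAs rose with RANKL in 17 of 18 cases (median 0.94), with Pih1d1 not called (0.10). Among all genes, 32.8% were called higher with RANKL, and 13.7% lower with acetate against RANKL. Dyskerin (Dkc1), the pseudouridine synthase of H/ACA particles, rose from 57.1 ± 5.05 to 198 ± 1.69 CPM (log2 fold change 1.80 ± 0.06, adjusted p = 6.228e-24). Nop56 rose by 1.45 ± 0.04 and Nop58 by 1.38 ± 0.05, both core proteins of C/D particles and themselves snoRNA hosts, and Nolc1, a chaperone of snoRNA particles in the nucleolus, by 1.46 ± 0.05. Under acetate against RANKL, 8 of the 18 fell and none rose (median -0.17), with Dkc1 at -0.25 ± 0.05. With RANKL and acetate against day 0, 17 were higher and 0 lower (median 0.87). In that comparison 30.3% of all genes were called higher and 30.4% lower. Nop56, Nop58 and Dkc1 stand in both this list and that of protein-coding hosts.

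Factors of nonsense-mediated decay, which degrades the spliced RNA of several hosts when translated, rose with RANKL in 13 of 15 cases (median 0.34). Whether it acts on the hosts in these cells was not tested. The shares of all genes called with RANKL were 32.8% higher and 33.5% lower. The exon junction proteins Magoh, Eif4a3 and Rbm8a rose by 0.92 ± 0.08, 0.50 ± 0.05 and 0.45 ± 0.06, and Smg5 by 0.53 ± 0.06. Smg1 (0.00) and Upf3a (-0.06) were not called. Acetate against RANKL gave 2 higher and 6 lower (median -0.05), and against day 0 gave 11 higher and 1 lower (median 0.25). Long non-coding RNAs listed for contrast were mixed: of 6 tested, 3 rose and 2 fell with RANKL (median 0.40). Mir17hg, a microRNA host, rose by 1.81 ± 0.12 and Kcnq1ot1 by 1.00 ± 0.22, while the nuclear RNAs Neat1 and Malat1 fell (-0.68 ± 0.04 and -0.16 ± 0.04). Acetate against RANKL gave 1 higher and 2 lower of these 6 (median -0.02), and against day 0 gave 3 and 2 (median 0.39). For both lists, the shares of all genes called with acetate against RANKL were 16.7% higher and 13.7% lower. With RANKL and acetate against day 0 the shares were 30.3% higher and 30.4% lower.

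**Figure D4:**
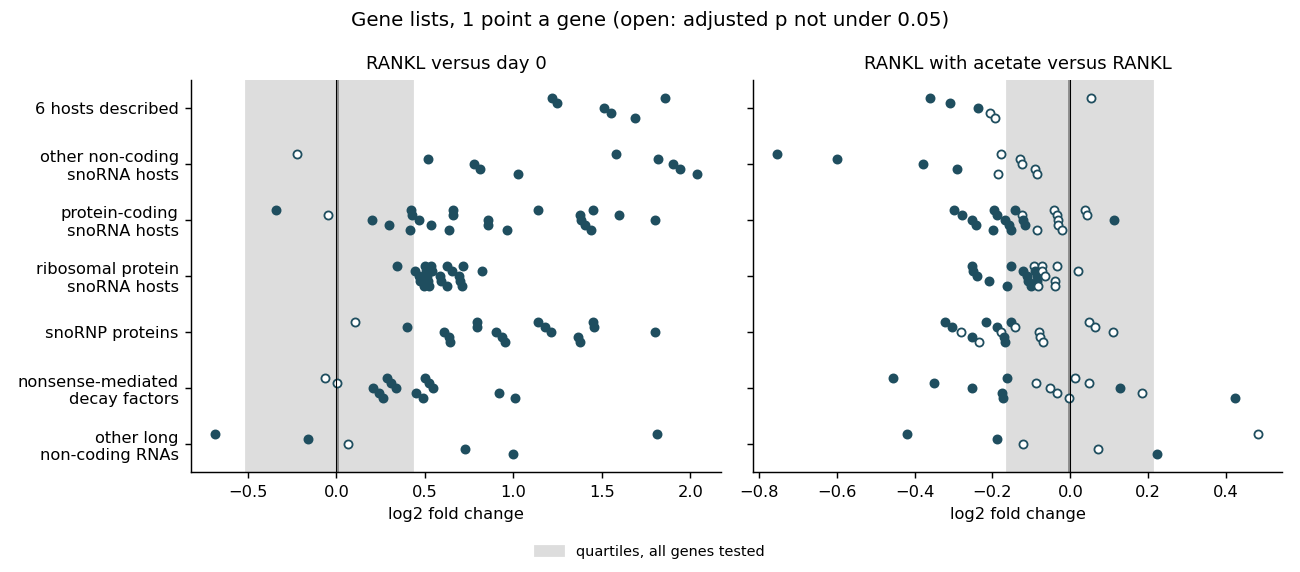
Log2 fold change of each tested gene in 7 lists (rows) for RANKL against day 0 (left) and RANKL with acetate against RANKL (right). Filled points passed an adjusted p of 0.05, the grey band runs from the lower to the upper quartile of all 12224 genes and the grey line their median; the 6 hosts lie at 1.22 to 1.86 on the left and -0.36 to 0.05 on the right.

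The genes whose profile over the 6 libraries was most like the median of the 6 hosts were Il1rn, Eif1ad, Nolc1, Nop56 and Mybbp1a, at distances of 0.068, 0.073, 0.079, 0.086 and 0.094 (Euclidean, over log2 CPM centred on each gene's mean, among the 8867 tested whose mean reached 10 CPM). Il1rn encodes the interleukin 1 receptor antagonist and Mybbp1a a nucleolar protein, and they were at 1.49 ± 0.08 and 1.52 ± 0.04 with RANKL. The hosts themselves lay from 0.145 for Gas5 to 0.444 for Snhg3 from that median. The genes named were picked as the nearest of 8867, so their smaller distances do not show that the hosts are less alike. Nearest to single hosts were Fam60a and Aebp2 for Gas5, Cep85 and Ybx3 for Snhg3, Nsun2 and Pltp for Snhg5, Atad3a and Slc35e4 for Snhg6, Nudt1 and Mdn1 for Snhg8, and Pabpc4 and Il1rn for Snhg12. Among these, Nsun2, an RNA cytosine methyltransferase, went from 169 to 598 CPM with RANKL and 445 with acetate, and Cep85 from 209 to 645 and 694.

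Neighbouring genes give the local comparison. Rcc1, the exchange factor of the GTPase Ran, begins 81 bases from the start of Snhg3 on the same strand and overlaps it over 5592 bases, so their reads could be divided either way. Rcc1 rose with RANKL (log2 fold change 1.37 ± 0.05, adjusted p = 2.027e-21) and was lower with acetate (-0.24 ± 0.05, adjusted p = 0.000242), where Snhg3 was not called. Zbtb37 begins 427 bases from Gas5 on the opposite strand and overlaps it by 428 bases. It was not called with RANKL (-0.11 ± 0.19, adjusted p = 0.619), and whether the counting used strand is not given in the sources used here. Syncrip, 40355 bases from Snhg5, rose by 0.70 ± 0.04 and fell with acetate (-0.17 ± 0.04). Near Snhg12, Taf12 and Trnau1ap rose by 0.31 ± 0.11 and 0.26 ± 0.12 (adjusted p = 0.0116 and 0.0496), and near Snhg8, Mettl14 rose by 0.28 ± 0.10 while Ndst3 was not called (1.29 ± 0.62). Sgk3, near Snhg6, fell (-0.24 ± 0.08), and Serpinc1, Phactr4, Zfp949 and Cspp1 were not called. The start of the next gene tested was 20915 to 182449 bases away for the hosts other than Gas5 and Snhg3.

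The starts of the host genes were also read for shared letters in RefSeq's promoter windows (GRCm38.p6). Windows were present for Gas5 (2 starts), Snhg3, Snhg5, Snhg8 and Snhg12. Shown are 100 bases before to 50 bases from the annotated start, in the direction of transcription, at chr1:161035066-161035215 for Gas5 (plus), chr4:132353637-132353786 for Snhg3 (minus), chr9:88522848-88522997 for Snhg5 (minus), chr3:123508287-123508436 for Snhg8 (minus) and chr4:132308578-132308727 for Snhg12 (plus). Capitals before the start mark TATA, and those around or after it mark a C followed by 4 or more pyrimidines.
Gas5: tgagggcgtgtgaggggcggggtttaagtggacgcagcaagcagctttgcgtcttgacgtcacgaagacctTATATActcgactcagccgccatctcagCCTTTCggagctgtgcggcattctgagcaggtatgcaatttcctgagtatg
Snhg3: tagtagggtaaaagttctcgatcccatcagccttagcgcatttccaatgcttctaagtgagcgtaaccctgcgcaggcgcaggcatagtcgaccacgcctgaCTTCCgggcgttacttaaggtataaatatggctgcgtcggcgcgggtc
Snhg5: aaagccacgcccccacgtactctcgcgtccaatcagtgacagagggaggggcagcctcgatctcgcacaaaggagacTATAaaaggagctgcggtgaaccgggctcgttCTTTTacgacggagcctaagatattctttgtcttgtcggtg
Snhg8: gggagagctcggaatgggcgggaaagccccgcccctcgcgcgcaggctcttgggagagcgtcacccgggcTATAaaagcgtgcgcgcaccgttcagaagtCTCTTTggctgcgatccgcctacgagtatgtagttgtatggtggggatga
Snhg12: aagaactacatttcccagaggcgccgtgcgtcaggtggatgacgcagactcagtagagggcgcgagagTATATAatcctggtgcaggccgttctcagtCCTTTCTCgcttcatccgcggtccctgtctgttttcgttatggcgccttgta

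TATA, whose letters read the same on both strands, was found in the 50 bases before the start in 4 of the 6 windows, those shown for Gas5, Snhg5, Snhg8 and Snhg12, and in 9.08% of the 32851 promoters of the table. The pyrimidine run, searched on the transcribed strand from 10 bases before to 15 after the start, was found in 5 of the 6 windows and in 34.2% of all promoters. It is CCTTTC at Gas5, CCTTTCTC at Snhg12, CTCTTT at Snhg8, CTTCC at Snhg3 and CTTTT at Snhg5, and the other Gas5 start had neither. CACGTG, also the same on both strands, was in 0 of the 6 windows of 300 bases and in 7.15% of all. Snhg3 had no TATA in the 50 bases before its start. The TATA in its printed sequence lies after the start, where TATA was not searched. Whether any of these features bears on the changes with RANKL was not tested.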

How the data were processed

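Per the labels' protocols, a miRNeasy kit with DNase gave the RNA and a SMARTer mRNA kit the libraries. Per the submitters' processing notes, Trimmomatic 0.39, STAR, RSEM 1.3.1 and DESeq2 1.26.0 were used on GRCm38. Their annotation is not given in the sources used here. Tables deposited by the authors hold RSEM expected counts, not normalized, and TPM, scaled for length and depth, for 45706 genes and 109617 transcripts; FPKM and transcript TPM were not used. Of the gene rows, 98.8% have a GENCODE M21 identifier.

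Expected counts were rounded (97.1% lay within 0.005 of a whole number) and fitted with edgeR 4.0.16 (R 4.3.3): filterByExpr (minimum count 10, total 15), TMM scaling (factors 0.952 to 1.037), 1 mean per group over all 6 libraries, quasi-likelihood tests, Benjamini-Hochberg adjustment. SE is the log2 fold change over the square root of F. With 2 libraries against 2, single genes cannot reach a permutation p below 0.333, so the spread is shared over genes. Retained-intron and other transcript counts were summed per gene and compared with diffSpliceDGE, which was mildly liberal on simulated data. Alternatives were DESeq2 1.42.0, limma 3.58.1 on log2(TPM + 0.1 or 1), other scalings, filters and samples, and a replicate block.

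Host genes and lists were chosen with earlier results of these data known. Named were all host genes, all listed non-coding hosts, the 4 genes of each other list with the smallest adjusted p under RANKL, the nearest tested neighbour on each side, and the genes most alike. A marker list is not reported here. Exceptions to a list's count, the transcripts named and the sequence features searched were chosen after values were seen.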

Additional observations from a re-analysis of the deposited data

How the results depend on the processing

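Of 17 alternatives, each host gene kept its direction and its call in all with RANKL against day 0 and with acetate against day 0 (102 values each). With acetate against RANKL, 94 of 102 values kept their side of the threshold, 8 lost the call and 0 turned in a called direction. The losses were 1 for Gas5, 1 for Snhg5 and 6 for Snhg6, among them limma on log2(TPM + 0.1) without a filter (adjusted p = 0.0765); the cause was not tested. The hosts called with acetate against RANKL numbered 3, and 1 with DESeq2. All genes called there numbered 3717, and 2462 with DESeq2, 1843 with limma on log2(TPM + 0.1), 1908 on log2(TPM + 1) and 1368 on log2(TPM + 0.1) without a filter.

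Leaving out 1 library at a time gave 6 to 6, 2 to 3 and 6 to 6 hosts called in the comparisons of RANKL with day 0, acetate with RANKL and acetate with day 0, and 8 to 16, 0 to 0 and 6 to 12 host transcripts (20, 0 and 16 with all libraries). Where this left 1 library in a group, it was assumed to vary like the other groups. All genes called then ranged from 7298 to 8196, 2675 to 3687 and 6541 to 7346. Differences between replicates 1 and 2 were nearly uncorrelated between groups over all genes tested (-0.03, -0.09 and -0.01). This cannot show whether the libraries were paired. With the replicate number as a block, 6, 3 and 6 hosts and 13, 0 and 12 host transcripts were called. The share of all transcripts called was not counted with the block or with 1 library left out. Other scalings moved the median of all genes by less than 0.1. The 77 to 188 counts a library at day 0 of the hosts other than Gas5 limit the precision.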
